A study of Mus musculus with 6 samples.

Results

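Expression of 10 genes of the Notch pathway was followed in C2C12, an established line of mouse myoblasts, which can fuse into multinucleated muscle cells. They were listed by symbol as receptors (*Notch1*, *Notch2*, *Notch3*), ligands (*Jag1*, *Dll1*), nuclear targets (*Hes1*, *Hey1*, *Heyl*, *Nrarp*) and the receptor inhibitor *Numb*. All 10 were found among the 14548 genes of the files. In a Notch signal, a Delta or Jagged ligand on one cell binds the receptor on its neighbour. The receptor is then cut by an ADAM protease and by γ-secretase, and its freed intracellular domain joins RBPJ and a Mastermind protein on DNA to switch on HES, HEY and *Nrarp* genes. In skeletal muscle the pathway is known for holding satellite cells, the stem cells of muscle, and myoblasts back from differentiation.

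There were 3 WT libraries and 3 MSTN-KO libraries, each from RNA of myoblasts. MSTN-KO cells carry a CRISPR/Cas9 disruption of the third exon of *Mstn*, the gene for myostatin, and all come from the line C11, so the effect of the lost gene and other differences of that line cannot be told apart. The labels write C11 under strain for WT as well, and groups were taken from the genotype. *Mstn* was near 0 in every library, at 0 to 0.0399 FPKM in WT and 0.0269 to 0.0586 FPKM in MSTN-KO, so its RNA could not check the genotype. FPKM counts the sequenced fragments of a gene per kilobase of its exons, relative to the size of the library. Nothing in the labels says that the replicates were separate cultures, so the p-values measure the spread between these libraries, which may be technical.

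The myoblast markers *Myod1* (90.8 to 167 FPKM) and *Des* (325 to 807 FPKM) were present in all 6 libraries, while the 4 endothelial markers analysed, *Pecam1*, *Cdh5*, *Kdr* and *Tek*, did not exceed 0.0581 FPKM in any. Among genes with a single annotated transcript, low values of FPKM times exon length in kilobases piled up at 0.0485 to 0.0655. This was read as the value of 1 fragment. That puts the depth at about 15300000 to 20600000 fragments per library, an estimate from the files and not a stated depth. FPKM summed over all genes was 723705 to 764524 in WT and 856314 to 999579 in MSTN-KO, without overlap, so the scaling to a common sum among the alternatives bears on every difference.

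Promoter sequence from RefSeq (GRCm38.p6) was at hand for 7 of the 10 genes, in 10 windows of 250 bases upstream of a transcript start. None was at hand for *Hes1*, *Hey1* or *Heyl*, so *Nrarp* was the only nuclear target with a window. The windows of *Nrarp* and *Notch1* are shown because these were the members called lower for which a window could be read. Both genes lie on chromosome 2, *Nrarp* at chr2:25180508-25180757 on the plus strand and *Notch1* at chr2:26503823-26504072 on the minus strand. Capitals mark CACGTG, an E-box of the kind that HES and HEY proteins bind.
Nrarp: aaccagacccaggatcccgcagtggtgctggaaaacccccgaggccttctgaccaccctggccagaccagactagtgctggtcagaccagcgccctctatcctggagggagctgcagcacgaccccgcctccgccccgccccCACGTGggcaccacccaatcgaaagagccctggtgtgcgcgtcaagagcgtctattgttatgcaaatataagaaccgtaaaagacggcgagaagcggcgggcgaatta
Notch1: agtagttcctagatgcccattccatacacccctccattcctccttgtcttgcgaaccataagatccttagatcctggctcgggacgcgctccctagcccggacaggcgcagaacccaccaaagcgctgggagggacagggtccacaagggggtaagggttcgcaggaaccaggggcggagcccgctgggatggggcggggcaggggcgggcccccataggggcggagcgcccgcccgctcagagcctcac

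Each window was searched on both strands for TGGGAA, the core of the RBPJ site, which reads TTCCCA on the opposite strand. It was also searched for the E-boxes CACGTG, described above, and CAGCTG, of the kind that MyoD and its relatives bind, both of which read the same on either strand. TGGGAA was in 0 of the 10 windows, against 21.6% of all 32851 RefSeq windows of this length. Most of the 10 windows belong to receptors, ligands and *Numb*, and the promoters of *Hes1*, *Hey1* and *Heyl* were not searched. CACGTG occurred once, in *Nrarp*, 108 bases before the start, against 6.02% of all windows. CAGCTG occurred once in the *Jag1* window and once in 1 of the *Dll1* windows, against 13% of all. A match describes the letters of the window and not a binding site, and the absence of one covers only these 250 bases.

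With limma on log2(FPKM + 1), *Heyl*, *Nrarp* and *Notch1* were lower and *Hes1* was higher in MSTN-KO than in WT at a Benjamini-Hochberg adjusted p under 0.05. Thus 4 of the 10 members were called, 3 lower and 1 higher. Genes were tested if they reached 1 FPKM in any library, which *Heyl* did only in WT and *Jag1* only in MSTN-KO. Of all 10837 genes tested, 17.7% were called, 8.96% lower and 8.78% higher. The members' shares were not tested against these, and the 1 gene called higher is near the background. The median log2 fold change of the members was -0.30, and that of all genes tested was -0.000781. The 2 groups did not overlap for 5 of the 10 members, against 37.4% of all genes tested. A second rule asked for an unadjusted limma p under 0.05 together with a log2 fold change of more than 1 in size. By this rule *Heyl* and *Nrarp* were lower (2 of 10, against 2.3% of all genes tested) and 0 members were higher (against 1.21%). The thresholds of this rule are the study's cutoffs, but the fit they were applied to is the limma fit used here. The study used the iDEP software and listed more genes in both directions. The cause of that gap was not tested.

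**Figure D1:**
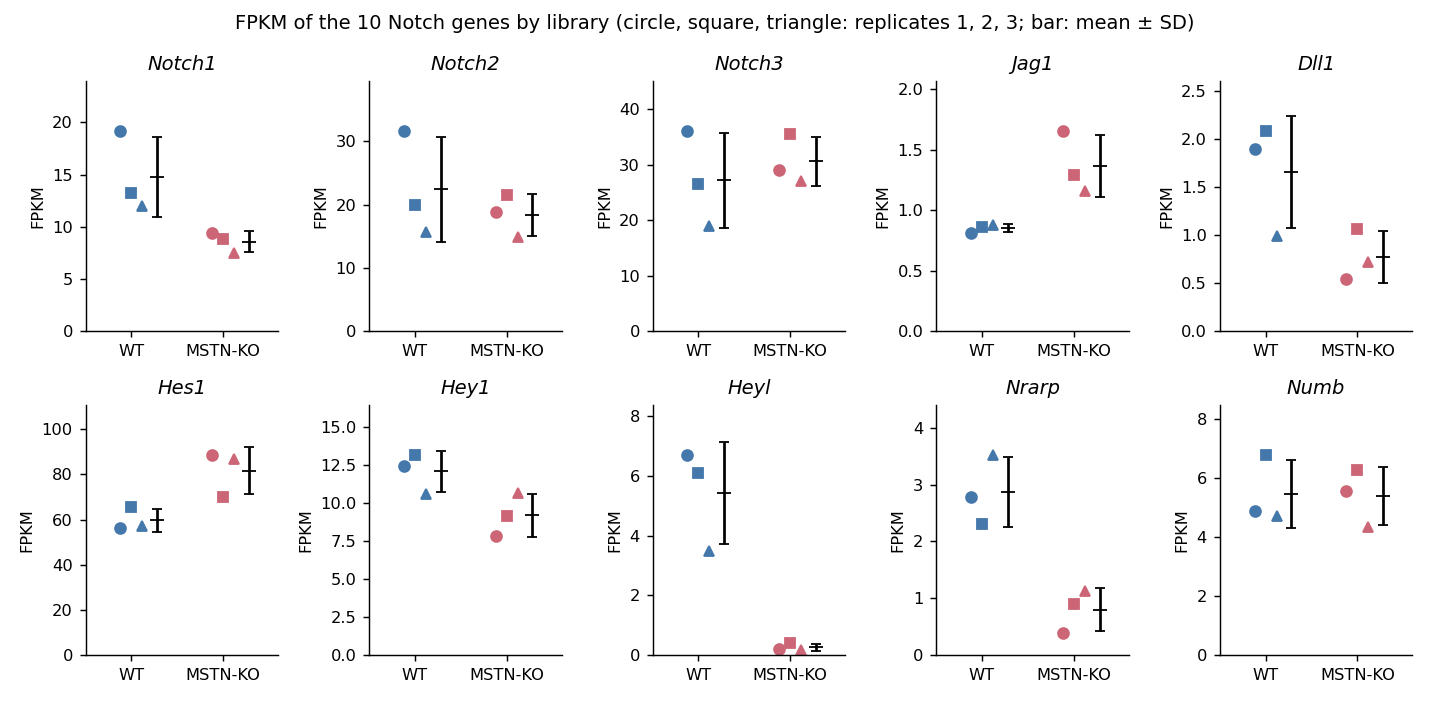
FPKM of each Notch gene (vertical axes, starting at 0) in the 3 WT (blue) and 3 MSTN-KO (red) libraries, with circles, squares and triangles for replicates 1, 2 and 3 and bars for the mean ± SD. The MSTN-KO points of *Heyl* lie at 0.180 to 0.392 FPKM, far under the lowest WT point at 3.48 FPKM, while the points of *Numb*, *Notch2* and *Notch3* overlap between the groups.

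**Figure D2:**
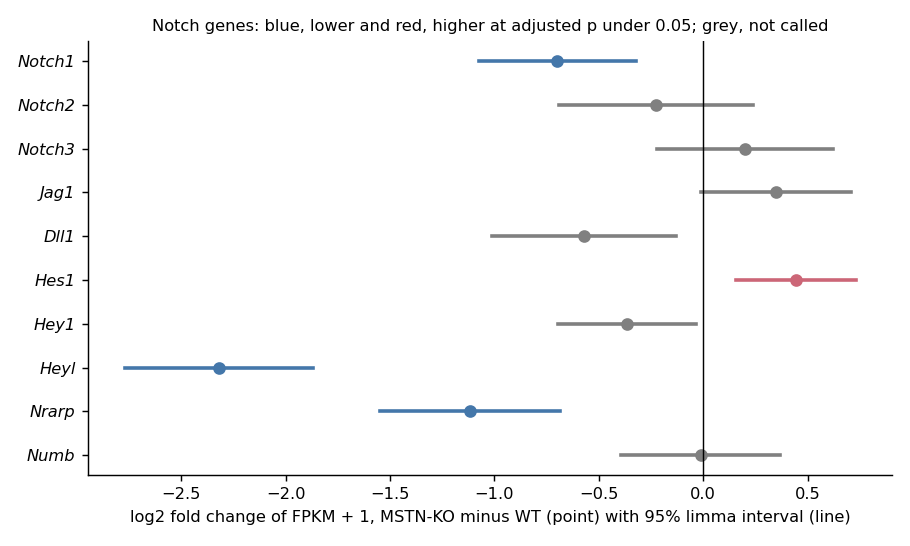
Log2 fold change of FPKM + 1, MSTN-KO minus WT, for each Notch gene (point) with its 95% interval from limma (line), coloured blue or red where the adjusted p was under 0.05. *Heyl* at -2.32 stands furthest from 0, followed by *Nrarp* at -1.12, and *Hes1* at 0.44 is the 1 gene called higher.

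Of the receptors only *Notch1* was called, and differences between the receptors were not tested. *Notch1* (ENSMUSG00000026923; chromosome 2, 26457903 to 26516663 in GENCODE M21 on GRCm38) measured 19.2, 13.2 and 12 FPKM in the WT libraries, in the order of their replicate numbers here and throughout, against 9.42, 8.83 and 7.52 FPKM in MSTN-KO. Every MSTN-KO library was thus below every WT library, with WT replicate 1 well above the other two. *Notch1* fell from 14.8 ± 3.83 to 8.59 ± 0.973 FPKM (SD, n = 3), a log2 fold change of -0.70 (95% interval -1.08 to -0.32, limma adjusted p = 0.0154). The call was lost without WT replicate 1 (-0.51, limma adjusted p = 0.0508), without MSTN-KO replicate 3 (-0.62, limma adjusted p = 0.0656) and without the filter on low values (limma adjusted p = 0.0558).

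*Notch2*, the paralog that together with *Notch1* and *Notch3* is expressed in satellite cells, was at 31.6, 19.9 and 15.7 FPKM in WT and at 18.8, 21.5 and 14.9 FPKM in MSTN-KO. The groups overlapped, and WT replicate 1 was again the highest library. Its log2 fold change was -0.23 (95% interval -0.69 to 0.24, limma adjusted p = 0.490), which turned to 0.041 without WT replicate 1. *Notch3*, known in muscle as a receptor of satellite cells and in vessels as that of mural cells, had the highest level of the receptors. It was at 36.1, 26.5 and 19.0 FPKM in WT and at 29.1, 35.6 and 27.1 FPKM in MSTN-KO, again with overlapping groups. Its log2 fold change was 0.20 (95% interval -0.22 to 0.62, limma adjusted p = 0.506), and without WT replicate 3 it was -0.025.

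Since FPKM is per length, levels of the receptors could be set against each other within a library, where a scaling factor common to the library cancels. *Notch1* held 22.1%, 22.2% and 25.7% of the FPKM summed over *Notch1*, *Notch2* and *Notch3* in WT, against 16.4%, 13.4% and 15.2% in MSTN-KO. *Notch3* held 41.5%, 44.4% and 40.7% in WT and 50.8%, 54.0% and 54.7% in MSTN-KO. The 2 groups did not overlap in either share. For *Notch2* they did not overlap either, but lay close, at 33.4% to 36.4% in WT and 30.1% to 32.8% in MSTN-KO. The ratio of *Notch3* to *Notch1* was 1.58 to 2.01 in WT and 3.09 to 4.03 in MSTN-KO. The summed FPKM of the receptors themselves overlapped, at 46.7 to 86.8 in WT and 49.5 to 66.0 in MSTN-KO. The shares are given as a description, with no test.

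**Figure D3:**
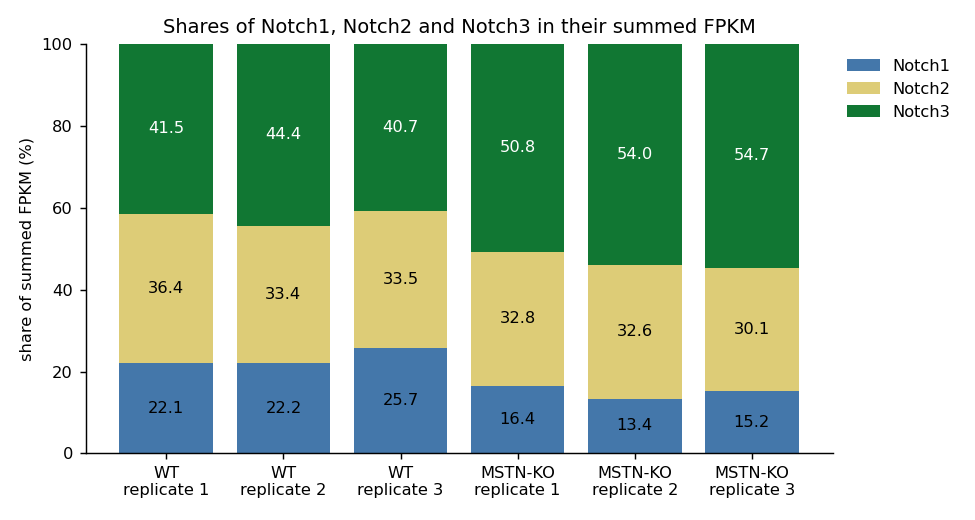
Share (%) of *Notch1*, *Notch2* and *Notch3* in their summed FPKM, 1 bar per library. The *Notch1* part is 22.1% to 25.7% in the WT bars and 13.4% to 16.4% in the MSTN-KO bars, and the *Notch3* part is above 50% in the 3 MSTN-KO bars only.

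Both ligands were expressed at low levels, *Jag1* from about 84 to 147 fragments per library and *Dll1* from about 35 to 181. *Jag1*, a Jagged-type ligand, was at 0.816, 0.862 and 0.879 FPKM in WT and at 1.65, 1.3 and 1.16 FPKM in MSTN-KO. All MSTN-KO libraries were above all WT libraries, with counting error of 10.9% in the lowest WT library and 9.09% in the lowest MSTN-KO library. The log2 fold change was 0.35 (95% interval -0.0084 to 0.71), with a limma adjusted p of 0.162 that missed the threshold. Quantile normalization gave 0.53 and an adjusted p of 0.0304.

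*Dll1*, a Delta-type ligand known from differentiating myogenic cells that signal to their neighbours, was at 1.90, 2.09 and 0.993 FPKM in WT and at 0.539, 1.07 and 0.717 FPKM in MSTN-KO. WT replicate 3 lay among the MSTN-KO libraries. The log2 fold change was -0.57 (95% interval -1.01 to -0.13), with a limma adjusted p of 0.0714 over all genes tested. The FPKM + 1 scale understates the change of genes as low as the ligands: with a pseudocount of 0.1 the log2 fold change was -0.99 for *Dll1* (adjusted p = 0.0755) and 0.61 for *Jag1* (adjusted p = 0.164), neither called by limma. The difference in *Dll1* passed at 5 of 16 alternative settings, without WT replicate 3 among them (-0.76, adjusted p = 0.0244). Another of the 5 was scaling to a sum of 1000000 (-0.78, limma adjusted p = 0.0409), which moved the median of all genes to -0.26. Within a library, *Dll1* exceeded *Jag1* in WT, by a ratio of 2.33, 2.42 and 1.13, and was below it in MSTN-KO, at 0.326, 0.823 and 0.619. The order of the ligands was therefore opposite in the groups, as a description with no test. In WT replicate 3 the ratio of 1.13 rests on about 80 fragments of *Dll1*, with a counting error of 11.2%, and about 98 of *Jag1*. The order in that library is thus uncertain.

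The nuclear targets differed most from each other. *Heyl* (ENSMUSG00000032744; chromosome 4, 123233556 to 123249875) encodes a repressor of the HEY family and is known as a Notch target of satellite cells. It was at 6.71, 6.11 and 3.48 FPKM in WT and at 0.201, 0.392 and 0.180 FPKM in MSTN-KO. All MSTN-KO libraries were far below all WT libraries, with about 16 to 37 fragments each against about 341 to 645. The mean fell from 5.44 ± 1.72 to 0.258 ± 0.117 FPKM (SD, n = 3), 21.1-fold lower. Its log2 fold change was -2.32 (95% interval -2.77 to -1.87, limma adjusted p = 7.67e-06) on the FPKM + 1 scale, which understates the change of a gene this low, and -3.95 with a pseudocount of 0.1. The call was kept at all 16 alternative settings.

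*Nrarp* (ENSMUSG00000078202; chromosome 2, 25180758 to 25183339) encodes a small ankyrin repeat protein that a Notch signal induces and that in turn limits the receptor's intracellular domain. It was at 2.78, 2.30 and 3.52 FPKM in WT and at 0.378, 0.892 and 1.12 FPKM in MSTN-KO. The groups did not overlap, and WT replicate 3, the lowest WT library for *Heyl*, was the highest for *Nrarp*. *Nrarp* fell from 2.87 ± 0.618 to 0.798 ± 0.381 FPKM (SD, n = 3), 3.59-fold lower, with a log2 fold change of -1.12 (95% interval -1.55 to -0.68, limma adjusted p = 0.00234). The MSTN-KO values rest on about 15 to 52 fragments, where counting error alone reaches 25.8% of the lowest. The call was kept at all 16 alternative settings, with log2 fold changes from -1.81 to -0.94.

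*Hes1* (ENSMUSG00000022528; chromosome 16, 30064384 to 30067796), the HES family repressor that many signals besides Notch can induce, went the other way. It was at 56.3, 65.4 and 57.1 FPKM in WT and at 88.7, 69.8 and 86.7 FPKM in MSTN-KO. The groups did not overlap, though MSTN-KO replicate 2 came close to WT replicate 2. *Hes1* rose from 59.6 ± 5.02 to 81.7 ± 10.4 FPKM (SD, n = 3), a log2 fold change of 0.44 (95% interval 0.16 to 0.73, limma adjusted p = 0.0358). The call was lost at 10 of 16 alternative settings, among them leaving out any 1 WT library, MSTN-KO replicate 1 or MSTN-KO replicate 3. The limma adjusted p ran from 0.0117 to 0.314 over the 16. The direction stayed the same at all 16.

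*Hey1* (chromosome 3, 8663359 to 8667256), the HEY family repressor related to *Heyl*, was at 12.4, 13.2 and 10.6 FPKM in WT and at 7.79, 9.12 and 10.6 FPKM in MSTN-KO. MSTN-KO replicate 3 and WT replicate 3 were almost level, so the groups overlapped by that pair. The log2 fold change was -0.36 (95% interval -0.69 to -0.034), and the limma adjusted p of 0.117 missed the threshold. The length and GC correction brought it under (-0.42, adjusted p = 0.0311). Scaling to a sum of 1000000 did so too (-0.64, adjusted p = 0.0166), but it moved the median of all genes to -0.26. Part of that value is thus a shift not particular to *Hey1*, which still lay below the median. Against its relative *Heyl*, *Hey1* was 1.85 to 3.04 times as high within the WT libraries and 23.2 to 59.2 times as high within the MSTN-KO libraries. Of the FPKM summed over the 4 targets, *Hes1* held 72.0% to 76.4% in WT and 87.0% to 91.4% in MSTN-KO, while *Heyl* held 4.66% to 8.58% and 0.182% to 0.490%. These shares are descriptions as well.

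*Numb*, the endocytic adaptor that lowers Notch receptor signalling and is passed on unequally when some myogenic cells divide, was at 4.90, 6.80 and 4.72 FPKM in WT and at 5.57, 6.29 and 4.36 FPKM in MSTN-KO. The ranges coincided almost entirely. The log2 fold change was -0.012, and its 95% interval of -0.39 to 0.37 still allows modest changes either way (limma adjusted p = 0.970).

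Ordered by mean FPKM, *Hes1* was the highest member in both groups, clear of *Notch3* in every library. In WT the order went on with *Notch3*, *Notch2*, *Notch1* and *Hey1*, neighbours whose ranges overlapped, then *Numb*, *Heyl* and *Nrarp*, which overlapped likewise. *Dll1* and *Jag1* came last. In MSTN-KO *Hey1* and *Notch1* overlapped each other, as did *Nrarp* and *Dll1*, and the ranges of all other neighbours were apart. *Heyl*, at rank 7 of 10 in WT, was last in MSTN-KO.

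The other genes of the pathway showed few calls. Of 59 further genes listed by role, 55 were analysed, 8 of these did not reach 1 FPKM in any library, and 47 were tested. Of the 47, 2 were called higher and 3 lower, shares below the 8.78% and 8.96% of all genes. Their median log2 fold change was -0.074, and the groups did not overlap for 13 of the 47, a smaller share than the 37.4% of all genes tested. *Jag2*, *Dlk1*, *Hes5* and *Dtx1* were not analysed here.

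**Figure D4:**
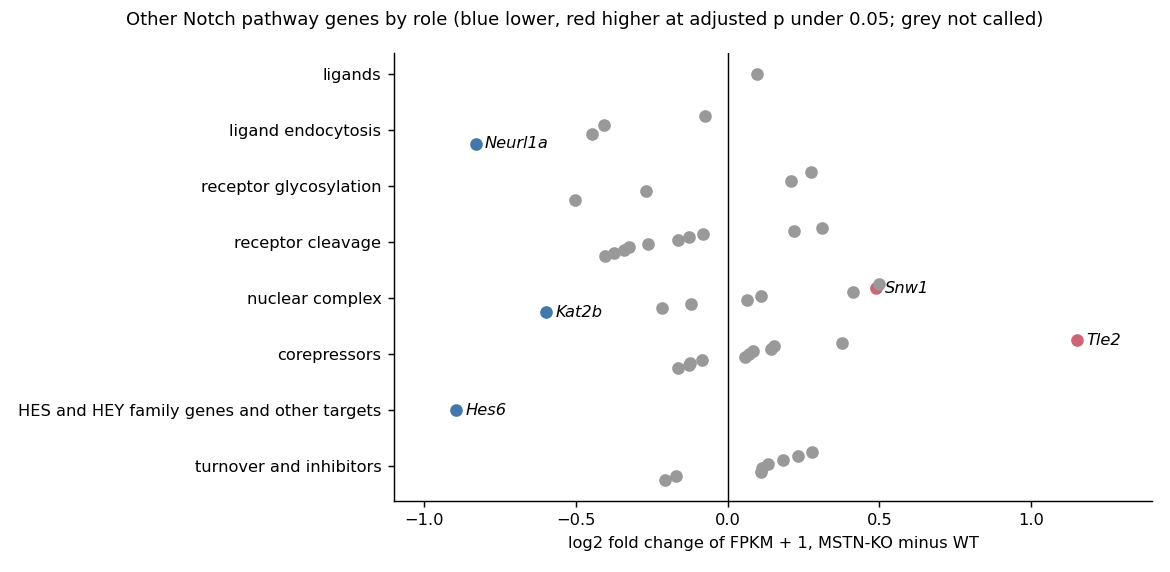
Log2 fold change of FPKM + 1, MSTN-KO minus WT, of the 47 other Notch pathway genes tested, by role, 1 point per gene, blue or red and named where the adjusted p was under 0.05. Most points lie within 0.5 of 0 and grey, with *Tle2* at 1.15 and *Hes6* at -0.89 furthest out.

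*Hes6*, a HES family member that counteracts HES1 and favours myogenic differentiation, was at 89.5, 81.6 and 71.2 FPKM in WT and at 42.4, 38.9 and 47.5 FPKM in MSTN-KO. The groups lay far apart, by a log2 difference of -0.89 ± 0.13 (SE, limma adjusted p = 0.000614). *Tle2*, a Groucho-type corepressor that HES proteins recruit, was at 5.60, 4.23 and 4.87 FPKM in WT and at 11.3, 13.4 and 11.5 FPKM in MSTN-KO. Every MSTN-KO value was above every WT value, by a log2 difference of 1.15 ± 0.15 (SE, limma adjusted p = 0.000207). The calls of *Hes6* and *Tle2* were kept at all 16 alternative settings. The related *Tle1* (log2 fold change 0.084) and *Tle3* (0.056) were not called.

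*Neurl1a*, a Neuralized ubiquitin ligase that promotes endocytosis of ligands, was at 47.1, 36.3 and 22.3 FPKM in WT and at 16, 20.7 and 19.1 FPKM in MSTN-KO. WT replicate 3 came near the MSTN-KO libraries. Its log2 difference was -0.83 ± 0.22 (SE, limma adjusted p = 0.0184), and the call was lost at 4 settings, without WT replicate 1, WT replicate 2 or MSTN-KO replicate 3 and without the filter. *Kat2b*, an acetyltransferase that serves as coactivator of Notch and of MyoD, fell from 5.94 ± 0.401 to 3.68 ± 1.21 FPKM (SD, n = 3; log2 fold change -0.60, limma adjusted p = 0.0394). *Snw1*, a splicing protein that also binds RBPJ complexes, rose from 25.5 ± 4.08 to 36.2 ± 6.36 FPKM (log2 fold change 0.49, limma adjusted p = 0.0499). Both calls were narrow, that of *Kat2b* being lost at 7 of 16 settings (limma adjusted p 0.00484 to 0.130) and that of *Snw1* at 11 (0.00816 to 0.380). Either was lost with single libraries left out, for *Kat2b* any except MSTN-KO replicate 2 and for *Snw1* any except WT replicate 3 and MSTN-KO replicate 2.

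The other 42 genes tested were not called. Of 10 genes for receptor cleavage, 0 were called, against 17.7% of all genes tested, and 8 had a log2 fold change below 0, against 5429 of all 10837. The γ-secretase subunits *Psenen* (143 ± 8.56 in WT and 179 ± 27.7 FPKM in MSTN-KO) and *Aph1a* (111 ± 21.4 and 128 ± 0.483 FPKM) had the highest levels of that group. *Rbpj*, the DNA-binding partner of the receptors, was at 16.7 ± 0.863 and 14.4 ± 2.11 FPKM (limma adjusted p = 0.309). *Lfng*, a Fringe glycosyltransferase that tunes which ligands a receptor answers to, was at 28.4 ± 6.21 and 19.6 ± 2.90 FPKM, without overlap but with a limma adjusted p of 0.0570. The corepressor partners *Hdac1* (51.0 ± 6.93 and 66.3 ± 3.87 FPKM, limma adjusted p = 0.0632) and *Ctbp1* (128 ± 11.5 and 117 ± 12.6 FPKM, limma adjusted p = 0.532) were not called. The acetyltransferase *Kat2a* was at 33.7 ± 3.31 and 36.4 ± 2.55 FPKM, and the ligand regulator *Mib2* at 9.57 ± 2.46 and 8.86 ± 0.462 FPKM. The groups overlapped for both, with adjusted p of 0.592 and 0.800 from limma. The Fringe relative *Rfng* was at 14.7 ± 1.6 and 18.0 ± 1.92 FPKM (limma adjusted p = 0.193). The ubiquitin ligases *Nedd4* (114 ± 4.16 and 126 ± 31.2 FPKM) and *Dtx3* (25.2 ± 3.04 and 30.9 ± 5.61 FPKM) were not called either. Among the other ligands and receptors, *Dlk2* was at 2.32 ± 0.673 and 2.55 ± 0.730 FPKM, and the receptor *Notch4* (at most 0.846 FPKM) and the ligand *Dll3* (at most 0.0797 FPKM) stayed under 1 FPKM in every library. So did *Hes7*, of the HES family (at most 0.335 FPKM), and these genes were not tested.

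Genes of muscle differentiation were set beside the members as context. Of 20 listed genes 19 were analysed. All 17 that passed the filter were lower in MSTN-KO at a limma adjusted p under 0.05, against 8.96% of all genes tested. Of these, *Myh3*, *Ckm* and *Casq2* reached 1 FPKM only in WT libraries, so the filter itself favoured a lower level in MSTN-KO for them. Without the filter, 18 of the 19 were called lower. Their median log2 fold change was -2.65. *Myog*, the transcription factor that marks committed myocytes, was at 175, 148 and 47.3 FPKM in WT and at 7.33, 10.2 and 11.6 FPKM in MSTN-KO. *Myh3*, embryonic myosin heavy chain, was at 11.2, 14.5 and 2.73 FPKM in WT and at 0.126, 0.457 and 0.343 FPKM in MSTN-KO. The level summed over the list was 1325, 1375 and 416 FPKM in WT and 66.5 to 113 FPKM in MSTN-KO, so WT replicate 3 stood apart from the other WT libraries. Among the WT libraries, the members *Notch1*, *Notch2*, *Notch3*, *Dll1*, *Hey1*, *Heyl* and *Numb* were lowest in that same replicate, as were *Neurl1a* and *Hes6*. *Nrarp*, *Jag1*, *Kat2b* and *Snw1* were highest in it, and *Hes1* and *Tle2* were between the other WT libraries. How many of all genes were lowest in that replicate was not counted. Without WT replicate 3 the log2 fold changes were -2.56 for *Heyl*, -1.0 for *Nrarp*, -0.83 for *Notch1* and 0.42 for *Hes1*. These 4 genes kept their direction, with limma adjusted p of 1.03e-06, 0.00994, 0.0108 and 0.0923. WT replicate 3 was the WT library nearest to MSTN-KO in the summed level, so leaving it out widened that gap. The part of differentiation in the values of the Notch genes was therefore not tested.

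Among 7 myoblast markers analysed, *Myod1*, *Des*, *Chrna1* and *Itga7* were called lower in MSTN-KO and *Pax7* was called higher. *Pax7*, the transcription factor of satellite cells, was at 1.02 ± 0.260 FPKM in WT and 2.19 ± 0.770 FPKM in MSTN-KO (log2 fold change 0.64, limma adjusted p = 0.0415). Over all genes tested, 8.96% were called lower and 8.78% higher. Of 8 markers shared by pericytes and smooth muscle, a cell class that also expresses *Notch3* and *Heyl*, *Pdgfrb* and *Acta2* were higher, *Cspg4* and *Mcam* were not called, and *Rgs5*, *Myh11*, *Kcnj8* and *Abcc9* did not exceed 0.145 FPKM. Their summed level, nearly all of it *Acta2*, was 1133 to 1154 FPKM in WT and 1382 to 1829 FPKM in MSTN-KO. The sum of 3 fibroblast markers was 2.04 to 3.79 FPKM in WT and 1.41 to 2.53 FPKM in MSTN-KO, with *Dcn* called lower. The others were too low to be tested and did not fall with it. *Dpt* was at 0 to 0.234 FPKM in WT and 0.410 to 0.508 FPKM in MSTN-KO, and *Pdgfra* had means of 0.617 and 0.606 FPKM. The sum of 3 immune markers was 1.19 to 1.56 FPKM in WT and 0.818 to 2.45 FPKM in MSTN-KO. In bulk RNA, fewer cells expressing a gene and less of its RNA per cell cannot be told apart.

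**Figure D5:**
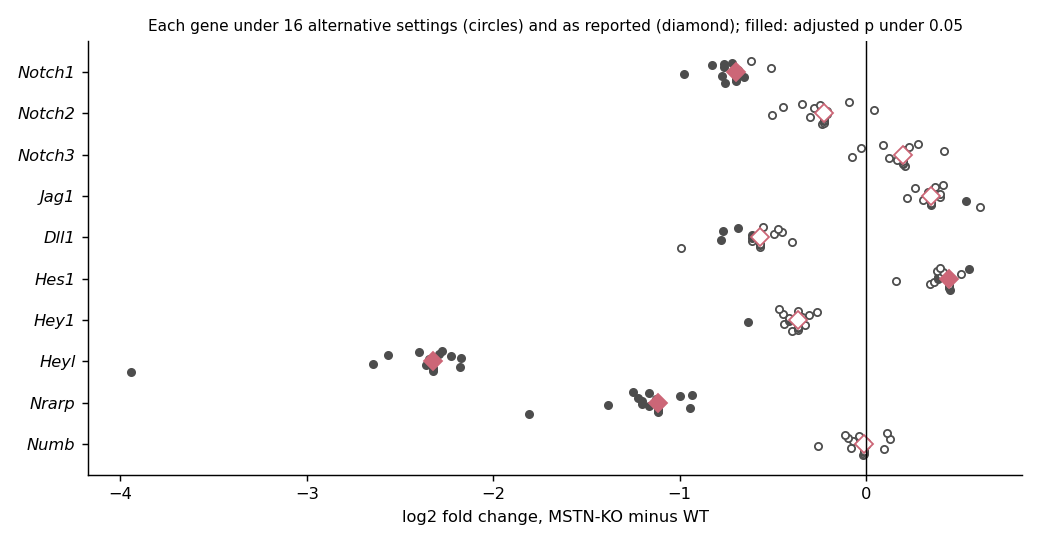
Log2 fold change, MSTN-KO minus WT, of each Notch gene as reported (diamond) and under 16 alternative settings (circles), filled where the adjusted p was under 0.05. All markers of *Heyl* and *Nrarp* are filled and below 0, those of *Hes1* are above 0 but filled in part, and those of *Numb* lie on both sides of 0.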

How the data were processed

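C2C12 RNA was sequenced in 6 libraries, 3 per genotype. Per gene FPKM values computed by the authors were deposited, each library separately. The submitters' processing notes list Bowtie 0.12.2 and the build mm8 without a role, and a counter, annotation or gene filter is not given in the sources used here. Files hold gene identifiers and no coordinates. Symbols, positions and exon lengths came from GENCODE M21 on GRCm38, with 14445 of 14548 identifiers matched.

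Genes reaching 1 FPKM in any library were compared as log2(FPKM + 1) with limma 3.58.1 (R 4.3.3, eBayes with trend, two-sided, no covariate) across all 10837 genes, and p-values were adjusted by Benjamini-Hochberg. Calling was tested on simulated data with known changes. These were larger than those of all members but *Heyl*, in genes of higher level than *Heyl*, *Nrarp*, *Jag1*, *Dll1* and *Numb*. The simulation therefore does not show how well smaller changes or low genes are called. The members and lists were chosen with earlier results of these data known. Named genes were all members, every called pathway gene and the 2 highest of each role, *Myog* and *Myh3*. *Rbpj*, *Tle1*, *Tle3*, *Jag2*, *Dlk1*, *Hes5*, *Dtx1* and the cell markers were named beyond that rule, after their values were seen. Fragment numbers are FPKM times exon length over the estimated value of 1 fragment, with exons of all transcripts merged, and cover counting error only. Alternatives changed the pseudocount (0.1), filter, trend, scaling (quantile, percentile 75, sum of 1000000), a length and GC correction (mgcv 1.9.3), a replicate block and single libraries. Python 3.11.15 and matplotlib 3.10.9 were used elsewhere.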

Additional observations from a re-analysis of the deposited data

How the results depend on the processing

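The log2 fold changes of the 10 members gave 160 values under 16 alternatives. Of these, 131 kept direction and side of the threshold, 13 lost the call (3 of *Notch1*, 10 of *Hes1*), 8 gained one and 8 changed sign, all of genes not called. The sign changed for *Notch2* without WT replicate 1 (0.041), for *Notch3* without WT replicate 3 (-0.025) and with scaling to a sum of 1000000 (-0.077), and for *Numb* with quantile normalization (0.095), the length and GC correction (0.000374, also with the replicate block), without WT replicate 2 (0.13) and without MSTN-KO replicate 3 (0.11). With single libraries left out, *Notch2* ran from -0.44 to 0.041, *Notch3* from -0.025 to 0.42 and *Numb* from -0.11 to 0.13. Scaling to a sum of 1000000 moves the median of all genes to -0.26, and relative to that *Notch3* stayed higher.

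Members called higher numbered 0 in place of 1 without the filter, without the trend, under either scaling (by the percentile 75, to 1000000) and by the study's cutoffs. With quantile normalization the count stayed at 1, but the gene was *Jag1* (limma adjusted p = 0.0304) in place of *Hes1* (limma adjusted p = 0.0620). Members called lower numbered 5 in place of 3 with scaling to 1000000 and with the length and GC correction. With single libraries left out they numbered 0 to 1 and 2 to 4. Pathway genes called higher, 2 as reported, numbered 1 with a pseudocount of 0.1, the filter on the mean, either scaling or the study's cutoffs, 4 with the length and GC correction with or without the replicate block, and 1 to 3 with single libraries left out. Those called lower, 3 as reported, numbered 1 without the filter, 5 with scaling by the percentile 75 and with the length and GC correction with or without the block, 9 with scaling to 1000000, 0 by the study's cutoffs and 1 to 3 with single libraries left out. Over all genes, 952 were called higher and 971 lower as reported, 350 and 2367 with scaling to 1000000 and 757 and 1192 with the percentile 75. The 1923 calls became 1029 without WT replicate 2 and 1206 without MSTN-KO replicate 1, but 2435 without MSTN-KO replicate 2, 2536 with the length and GC correction and 2717 with scaling to 1000000. The causes of these shifts were not tested.

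The replicate numbers in the labels gave no sign of pairing the libraries, though 3 libraries per group cannot exclude it. Deviations from the group means correlated at -0.0153, -0.128 and -0.142 between libraries of number 1, 2 and 3. With the replicate block, 1 member was called higher and 3 lower, as without it, and 2 and 4 pathway genes. Depth limits *Heyl*, *Nrarp*, *Jag1* and *Dll1* most.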
